A study of Mus musculus with 4 samples.

Results

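The genes described here are 8 genes of the synaptic vesicle and of the SNARE machinery that fuses it with the cell membrane: Snap25, Vamp2, Syt1, Syt4, Syt11, Syp, Syn1 and Sv2a. They were taken by their symbols from the 27998 gene rows of the Illumina matrices, where each has 1 row, and with all of their transcript rows from the Nanopore matrices, where 21 isoforms of the 8 genes held at least 1 UMI in the cells kept. The study captured brain cells (cortex, hippocampus and sub ventricular zone) of 1 C57BL/6 mouse at embryonic day 18 in 1 droplet emulsion, split it into aliquots of 190 and 951 cells, and read the cDNA of each on 2 platforms, with short Illumina reads and with long Nanopore reads. A UMI is a random tag that marks 1 captured RNA molecule, so all values are counts of molecules, caught by a primer for poly(A). The paper reports that the primer also bound A-rich sites inside RNAs, mainly in their untranslated last part or in introns not yet spliced out. The mouse was neither treated nor mutated, and the aliquots are technical replicates of 1 cell suspension.

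A synaptic vesicle fuses when Vamp2 on the vesicle zips together with Snap25 and a syntaxin on the cell membrane. Syt1 is the calcium sensor that triggers this step, while Syt4, found on dense-core vesicles, and Syt11, which does not bind calcium, are synaptotagmins with other roles in membrane traffic. Syp (synaptophysin) and Sv2a are vesicle membrane proteins, and Syn1 (synapsin 1) is a phosphoprotein that holds vesicles in reserve clusters. Neurons make these proteins as they build axons and synapses, and radial glia, the stem cells of the embryonic cortex, form no synapses.

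After cells with under 1400 detected genes were left out, 186 of 190 and 935 of 951 cell barcodes remained, with 1809081 and 8295650 Illumina UMIs and 993220 and 4889148 Nanopore isoform UMIs. The 8 genes took 0.0644% and 0.0745% of the Illumina UMIs, 1165 and 6178 molecules. Both aliquots held 13 of the cell barcodes, 12 of them in cells kept in both, and without these 24 cells the same number of members was called in each of the 6 comparisons of classes given below. Haemoglobin UMIs, typical of red blood cells, occurred in 1064 of 1121 cells, at 463 to 638 CPM in every class (CPM, UMIs of a gene per 1000000 Illumina UMIs). The share of free RNA in the droplets was not estimated.

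Clustering without the 8 genes gave 10 clusters, which were grouped by marker genes into 8 classes: radial glia-like (69 cells), cycling-like (118), intermediate progenitor-like (83), immature glutamatergic-like (236), mature glutamatergic-like (278), immature GABAergic-like (173), mature GABAergic-like (144) and Cajal-Retzius-like cells (17). The mature glutamatergic-like class joined a cluster of 137 cells, in which 7 of its 8 markers were raised, with one of 141 cells, in which only 3 of 8 were. The immature glutamatergic-like class joined a cluster of 153 cells (6 of 8 markers raised) with one of 83 cells (5 of 8), which had 0 of the markers among its top 10 genes. The clusters of 141 and 83 cells are the 2 with weak class markers that were left out in an alternative chosen after seeing the data. Fabp7, a radial glia gene, lay at 8954 CPM in the radial glia-like class, Eomes, of intermediate progenitors, at 402 in theirs, and Gad2, an enzyme of GABA synthesis, at 517 and 439 in the GABAergic-like classes. Slc17a7, the vesicular glutamate transporter of mature cortical neurons, reached only 8.70 CPM in the mature glutamatergic-like class, so "mature" stands here for late embryonic neurons. The immature GABAergic-like cluster was led by Ebf1 and Isl1 and the mature one by Sst and Maf, so these classes differ in more than stage. The Cajal-Retzius-like class held 4 cells in the smaller aliquot and entered no test.

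All of the genes but Syt11 were low in the radial glia-like class and higher in neurons, and Syt11 went the other way, as the plot of levels by class shows. Levels are given in CPM of the summed Illumina UMIs of the class, first in the 190-cell and then in the 951-cell aliquot. Each gene was compared with itself across classes, since UMI counts were not divided by transcript length.

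**Figure D1:**
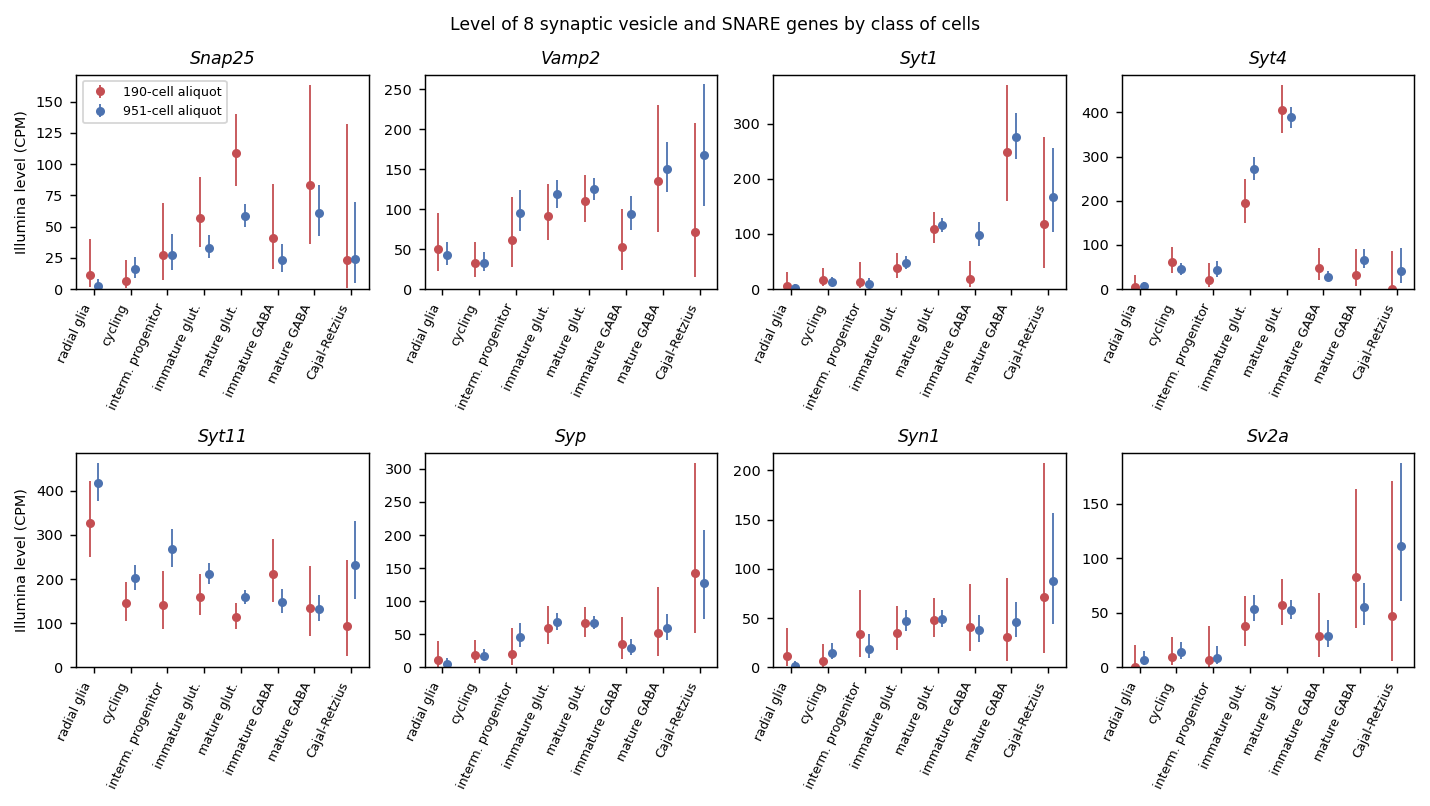
Illumina level in CPM (y axis) of the 8 genes in 8 classes of cells (x axis), with 1 point per aliquot and exact 95% Poisson bars that cover counting error only. Syt4 stands at 406 and 389 in mature glutamatergic-like cells and at 31.1 and 66.9 in mature GABAergic-like cells, and Syt11 is highest in radial glia-like cells at 327 and 418.

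Among the SNAREs, Snap25 (chromosome 2, 136713453 to 136782428, GRCm38) was counted 2 and 2 times in radial glia-like cells, which is 11.1 and 2.34 CPM. It stood at 56.6 and 33.3 in immature and at 109 and 58.3 in mature glutamatergic-like cells, and at 40.9 and 23.0 in immature and 83.0 and 60.6 in mature GABAergic-like cells. The ranges of the 2 mature classes overlapped, and each of these 4 neuron classes was higher in the 190-cell aliquot. Vamp2 (chromosome 11, 69088490 to 69092384) was already present in radial glia-like cells at 49.9 and 42.1, and it was lowest in cycling-like cells at 32.2 and 32.8. It reached 111 and 125 in mature glutamatergic-like and 135 and 150 in mature GABAergic-like cells, so the ratio of its highest to its lowest class was the smallest of the 7 genes other than Syt11.

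Of the synaptotagmins, Syt1 (chromosome 10, 108497650 to 109010982) was at 5.55 and 2.34 CPM in radial glia-like, 37.7 and 47.3 in immature glutamatergic-like and 109 and 115 in mature glutamatergic-like cells. It was highest in mature GABAergic-like cells at 249 and 276, above every value of the 6 other classes in the fit. In immature GABAergic-like cells the aliquots disagreed on Syt1, with 3 UMIs (17.5 CPM) against 81 (98.2 CPM). Syt4 (chromosome 18) had its 2 highest classes in the glutamatergic-like cells, at 195 and 273 in immature and 406 and 389 in mature ones. In the GABAergic-like classes Syt4 stayed at 46.8 and 27.9 (immature) and 31.1 and 66.9 (mature), ranges that overlapped with each other and with cycling-like cells at 61.2 and 44.7. Syt11 (chromosome 3, 88744700 to 88775164) was highest in radial glia-like cells at 327 and 418 and lowest in mature neurons, at 114 and 159 in glutamatergic-like and 135 and 132 in GABAergic-like cells. From the second to the last class, each neighbour in the order of Syt11 overlapped with the next.

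The vesicle proteins shared a low level in radial glia-like cells, where Syp (chromosome X, 7638471 to 7653256) was at 11.1 and 5.85, Syn1 (chromosome X, 20860511 to 20921004) at 11.1 and 1.17 and Sv2a (chromosome 3, 96181151 to 96195521) at 0 and 7.02 CPM. Syp reached 59.7 and 68.4 in immature and 66.4 and 66.9 in mature glutamatergic-like cells, values that overlapped. Syn1 had 34.6 and 46.7, then 47.9 and 49.0 in the same classes. Sv2a was at 6.76 and 8.55 in intermediate progenitor-like cells and at 37.7 and 53.7 in immature glutamatergic-like cells, with no overlap. In the few Cajal-Retzius-like cells, early neurons of the cortical surface, Syp was at 142 and 128, Syn1 at 70.9 and 87.7 and Sv2a at 47.3 and 112, on 6, 3 and 2 UMIs in the smaller aliquot, and these were not tested.

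Single cells gave a like picture for Syt4, Syt1 and Syt11 at low counts. With every cell thinned to 2000 UMIs, Syt4 was seen in 42.1% of mature glutamatergic-like cells (exact 95% interval 36.2 to 48.1), in 35.6% of immature ones (29.5 to 42.1), in 9.72% of mature GABAergic-like (5.42 to 15.8) and in 0 of 69 radial glia-like cells, where the interval reached 5.21%. Syt1 was seen in 32.6% of mature GABAergic-like (25.1 to 40.9), 19.4% of mature glutamatergic-like (14.9 to 24.6) and 1.45% of radial glia-like cells (0.0367 to 7.81). Syt11 was seen in 52.2% of radial glia-like cells (39.8 to 64.4) against 27.0% (21.9 to 32.6) and 22.2% (15.7 to 29.9) of the mature glutamatergic-like and GABAergic-like cells. Without thinning, at medians of 10637, 11430 and 4922.5 UMIs per cell in these 3 classes, Syt4 was seen in 10.1%, 74.8% and 20.8% of cells. In radial glia-like cells, which form no synapses, the thinned shares of the other genes were 0% for Syp and Syn1, 1.45% for Sv2a, 2.90% for Snap25 and 4.35% for Vamp2, and the part of free RNA in them was not tested. At least 4 of the 8 genes were seen in 3.24% of mature glutamatergic-like, 4.24% of immature glutamatergic-like and 0% of radial glia-like cells after thinning.

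The first comparison asked which of the genes differ between stem cells and late glutamatergic neurons. In mature glutamatergic-like against radial glia-like cells all 8 genes were called, 7 higher and Syt11 lower, where 34.4% of the 8421 genes tested were called (16.5% higher, 18% lower). The rises on the log2 scale were 5.85 (SE 0.37) for Syt4, 5.20 (SE 0.55) for Syt1, 4.25 (SE 0.57) for Snap25, 3.94 (SE 0.62) for Syn1, 3.26 (SE 0.45) for Syp, 3.23 (SE 0.51) for Sv2a and 1.45 (SE 0.27) for Vamp2. Syt11 fell by 1.42 on this scale (SE 0.25). Syt1 and Syn1 had 3 UMIs each in radial glia-like cells, and their ratios of CPM were 39.4 (13.4 to 192, exact 95% counting interval) and 16.8 (5.65 to 82.5). In the 190-cell and 951-cell aliquot Snap25 had 2 and 2 UMIs there, Sv2a 0 and 6, Syt4 1 and 6 and Syp 2 and 5. The sizes of their log2 changes also rest on these low counts. The highest adjusted p of the 8 was 5.06e-05, for Syt11 (edgeR quasi-likelihood test). The median log2 change was −0.05 over all genes tested and 1.59 over the 44 of 56 other listed synaptic genes that could be tested, of which 28 rose, 3 fell and 13 did not pass. The filter on low counts keeps a gene with enough UMIs in some of the sums. Genes near 0 in radial glia-like cells thus entered through their neuron counts, and listed genes sparse in all classes did not enter. The median and the counts of listed genes therefore describe the tested genes only and partly follow from the filter. Cplx1 (complexin 1, a fusion clamp) rose by 3.95 and Rab3c (a vesicle GTPase) by 3.92, and Rims1 (an active zone scaffold), on 1 UMI in radial glia-like cells, was higher by a ratio of CPM of 19.0 (exact 95% counting interval 3.27 to 762). The 3 that fell were Snap23 (−3.00), Vamp3 (−2.32) and Sypl (−1.73), of which Snap23 and Vamp3 are SNAREs used outside synapses. Markers of endothelial cells and pericytes summed to 5.55 and 80.8 CPM in radial glia-like and to 5.53 and 3.74 in mature glutamatergic-like cells, with 3 of 5 seen in each. Those of the oligodendrocyte lineage summed to 11.1 and 56.2 (5 of 5 seen) against 3.69 and 1.87 (3 of 5), and those of choroid plexus and ependyma to 22.2 and 38.6 against 1.84 and 4.86 (3 of 3 in each). Their part in the result was not tested. The classes were formed without these genes but from the same cells, so classes and genes are not independent.

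**Figure D2:**
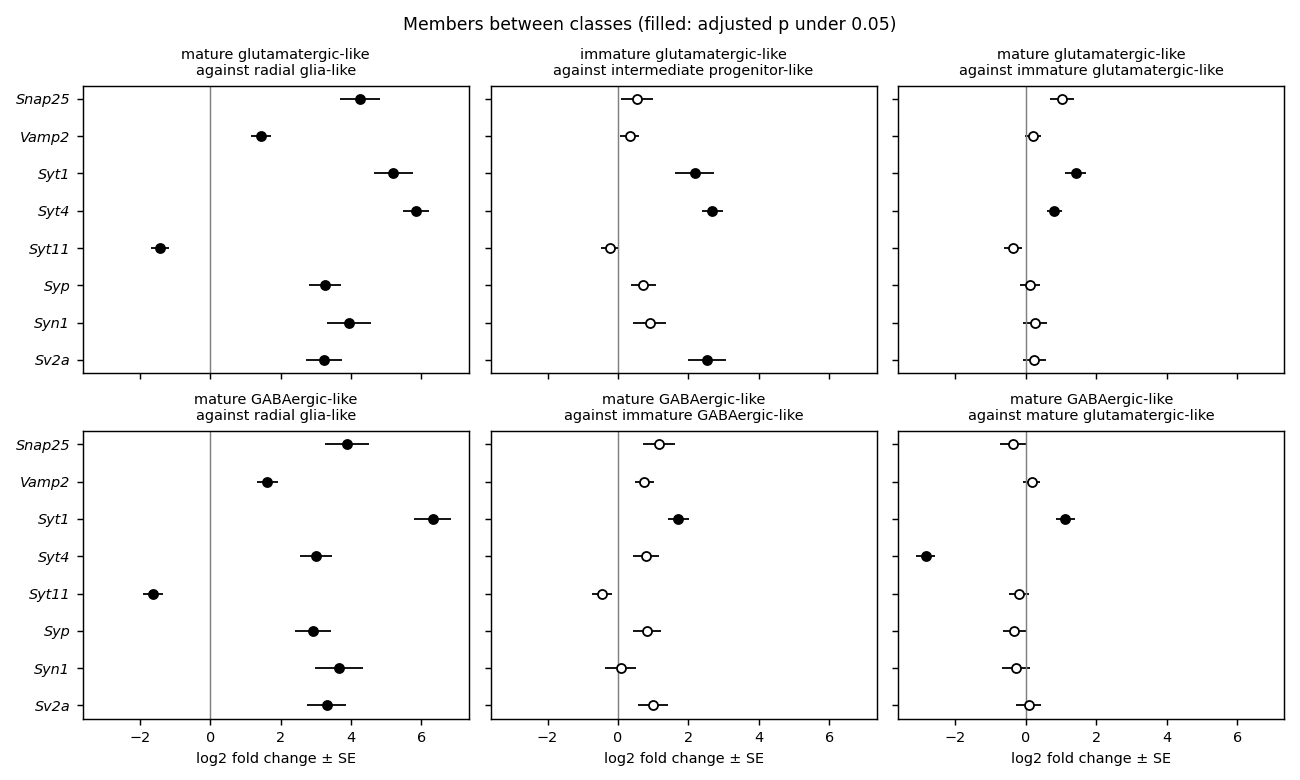
Log2 fold change (x axis) of the 8 genes (y axis) with its standard error, derived from the F statistic, in 6 comparisons of classes, filled where the adjusted p is under 0.05. All 8 points are filled in both comparisons with radial glia-like cells, and 3, 2, 1 and 2 in the others.

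Mature GABAergic-like cells against radial glia-like cells also had all 8 genes called, 7 higher and Syt11 lower, where 31.9% of genes tested were called (14% higher, 17.9% lower). Syt1 rose most, by 6.32 (SE 0.53), and Syt4 by 3.01 (SE 0.47). Snap25 rose by 3.88 (SE 0.63), Syn1 by 3.65 (SE 0.69), Sv2a by 3.31 (SE 0.55), Syp by 2.93 (SE 0.51) and Vamp2 by 1.62 (SE 0.30), while Syt11 fell by 1.62 (SE 0.28). As ratios of CPM, Syt1 was 93.8 (31.6 to 459) and Syn1 15.2 (4.77 to 77.8) times its radial glia-like level. The changes of Snap25, Sv2a, Syt4 and Syp rest on the same low radial glia-like counts as above. Without the sum of the mature GABAergic-like cells of the larger aliquot 5 of the 8 stayed called, since Syn1, Vamp2 and Syt4 had adjusted p values of 0.0947, 0.0687 and 0.263, and without that of the radial glia-like cells Syn1 was not called (adjusted p = 0.117). Of the 44 listed genes 24 rose, 3 fell and 17 did not pass, with a median of 1.65 against −0.07 for all genes. The limit set by the filter on low counts, given above, holds here too. Rph3a (rabphilin, a partner of Rab3) rose from 1 to 104 UMIs, a ratio of CPM of 149 (26.1 to 5925), Rab3c by 3.89 and Svop (a vesicle protein like Sv2) by 3.35 on the log2 scale. Snap23 (24 UMIs against 1), Vamp3 (−1.87) and Sypl (−1.61) were again those that fell. In mature GABAergic-like cells the endothelial and pericyte markers summed to 0 and 12.7 CPM (1 of 5 seen), those of the oligodendrocyte lineage to 0 and 0, and those of choroid plexus and ependyma to 0 and 4.78 (2 of 3), below the radial glia-like sums given above, and their part was not tested. Both comparisons share the radial glia-like sums.

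The next comparisons followed glutamatergic differentiation. Immature glutamatergic-like against intermediate progenitor-like cells had 3 of the 8 genes called, all higher, where 7.93% of genes were called and 4.09% were higher (14.0% were called with the aliquot as a block, with the same number of the 8). Syt4 rose by 2.67 (SE 0.30, adjusted p = 1.94e-08), Sv2a by 2.52 (SE 0.53, adjusted p = 0.00118) and Syt1 by 2.18 (SE 0.55, adjusted p = 0.00931). With DESeq2 only Syt4 was called (adjusted p = 0.0609 for Sv2a and 0.0961 for Syt1). Without the larger aliquot of either class only Syt4 was called as well, Sv2a having adjusted p values of 0.0941 and 0.129 and Syt1 of 0.179 and 0.453, and without the 2 clusters with weak class markers Syt1 was not called (1.75, adjusted p = 0.0742). Snap25, Vamp2, Syp and Syn1 had values of 0.55 (SE 0.46), 0.33 (SE 0.26), 0.72 (SE 0.35) and 0.89 (SE 0.46), none of which passed. With Nanopore isoform UMIs summed per gene, only 7 of the 8 could be tested by edgeR. Of these 3 were called, Syp among them (1.43, adjusted p = 0.0285), where 10.3% of genes were. Of the 44 listed genes 7 rose, with Rims1, Syt5 (2.04) and Cplx1 (1.92) at the top, and Synpr and Syn2 (−1.58), both vesicle proteins, fell. Rims1 had 0 UMIs in both intermediate progenitor-like sums and 6 and 16 in the immature glutamatergic-like ones, at least 2.86-fold higher against a floor of 3 UMIs over the group. Synpr had 0 and 12 against 0 and 2 UMIs, a ratio of 0.0649 (0.00706 to 0.292). The median of the 44 listed genes was 0.59 against 0.02 for all genes, with the same limit set by the filter on low counts. Markers of the oligodendrocyte lineage summed to 122 and 59.8 CPM in intermediate progenitor-like cells (4 of 5 seen) and to 0 and 5.12 in immature glutamatergic-like cells (3 of 5), and their part was not tested.

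Mature against immature glutamatergic-like cells had 2 of the 8 called, Syt1 higher by 1.41 (SE 0.29, adjusted p = 0.0031) and Syt4 higher by 0.80 (SE 0.21, adjusted p = 0.0208), where 3.68% of genes were called and 2.29% were higher. With DESeq2 neither was called (adjusted p = 0.177 for Syt1 and 0.514 for Syt4), though 2 of the 8 had an unadjusted p under 0.05. Snap25 had a value of 1.03 (SE 0.35, adjusted p = 0.0946). With the aliquot as a block Snap25 was called too, with 0.94 (SE 0.23, adjusted p = 0.00213), and 11.3% of genes were. Leaving out the class sum of any 1 aliquot left 1 of the 8 called. Syt1 was lost without the larger aliquot of the immature (adjusted p = 0.0806) or the mature class (0.0573). Syt4 was lost without the smaller aliquot of the immature (0.384) or the mature class (0.0849) or the larger one of the mature class (0.126), where Snap25 was called (1.45, adjusted p = 0.0425). Without the 2 clusters with weak class markers Snap25 was also called (1.44, adjusted p = 0.0182). The other 5 genes lay between −0.36 (SE 0.25) for Syt11 and 0.26 (SE 0.35) for Syn1. Of the listed genes, only Syt5 (1.09) and Syngr3 (1.07, a synaptogyrin of the vesicle membrane) rose among 44, and 0 fell. This is 4.5% called, near the share over all genes. The median of the 44 was 0.24 against 0.01 for all genes, with the same limit set by the filter on low counts.

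Mature against immature GABAergic-like cells had 1 of the 8 called, Syt1, higher by 1.71 (SE 0.31, adjusted p = 0.00061), where 2.68% of genes were called and 1.22% were higher. Syt1 was the gene whose 2 aliquots differed most in the immature class, and without the larger aliquot of the mature class it was not called (1.41, adjusted p = 0.19). With the block, Snap25 was called as well, at 1.22 (SE 0.38, adjusted p = 0.0313), and 5.77% of genes were. Sv2a, Syp, Syt4 and Vamp2 had values of 1.00 (SE 0.43), 0.82 (SE 0.40), 0.79 (SE 0.36) and 0.74 (SE 0.27), which did not pass, nor did Snap25 without the block, at 1.17 (SE 0.46). Syn2 (2.69) and Rph3a (2.39) rose and Syt6 (−3.21), a synaptotagmin, fell, and the other 41 listed genes did not pass. The difference of mature minus immature class was also compared between GABAergic-like and glutamatergic-like cells in the same fit, which was not planned. By edgeR 0 of the 8 were called and 0 had an unadjusted p under 0.05, where 1.94% of genes were called after adjustment. The values of this contrast lay between −0.19 (SE 0.57) for Syn1 and 0.76 (SE 0.54) for Sv2a. Syt1 had 0.30 (SE 0.43) and Syt4 −0.01 (SE 0.65). With standard errors of this size, it is not read from them that the changes are alike. As the GABAergic-like classes differ in more than stage, the contrast does not compare maturation alone.

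The last comparison set the 2 mature neuron classes against each other. Mature GABAergic-like against mature glutamatergic-like cells had 2 of the 8 called, in opposite directions, where 9.04% of genes were called, 3.3% higher and 5.74% lower (15.0% with the block, which called 2 of the 8 as well). Syt4 was lower by a log2 value of −2.84 (SE 0.28, adjusted p = 1.97e-10), with 3 and 42 UMIs in the GABAergic-like against 220 and 1040 in the glutamatergic-like class. Syt1 was higher by 1.12 (SE 0.27, adjusted p = 0.00503), and this call was lost without the larger aliquot of the GABAergic-like class (0.77, adjusted p = 0.44) and with DESeq2 (1.13, adjusted p = 0.226). The other 6 genes lay between −0.38 (SE 0.37) for Snap25 and 0.17 (SE 0.24) for Vamp2, and none of them passed. Of the 44 listed genes Rph3a (3.48) and Syn2 (1.41) were higher in GABAergic-like cells and 0 were lower. The median of the 44 was −0.13 against −0.05 for all genes, with the same limit set by the filter on low counts. Haemoglobin lay at 525 and 492 CPM in the glutamatergic-like and GABAergic-like class, and 0 of 5 oligodendrocyte lineage and 2 of 6 microglia markers had a UMI in the GABAergic-like class.

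Long reads gave the isoforms of the genes. The 21 isoforms held 2905 UMIs, and 14 of them had an annotated coding sequence. The 7 without one, annotated as retained introns, held 243 UMIs (8.36%), 200 of them of Syt1 and 32 of Snap25. Whether priming at A-rich sites in introns gave UMIs of the forms that keep an intron was not tested. Single isoforms made up all 923 UMIs of Syt4 (Syt4-201) and all 106 of Sv2a (Sv2a-201). Syp-201 held 315 of 318 UMIs of Syp (99.1%) and Vamp2-201 held 524 of 541 of Vamp2 (96.9%).

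**Figure D3:**
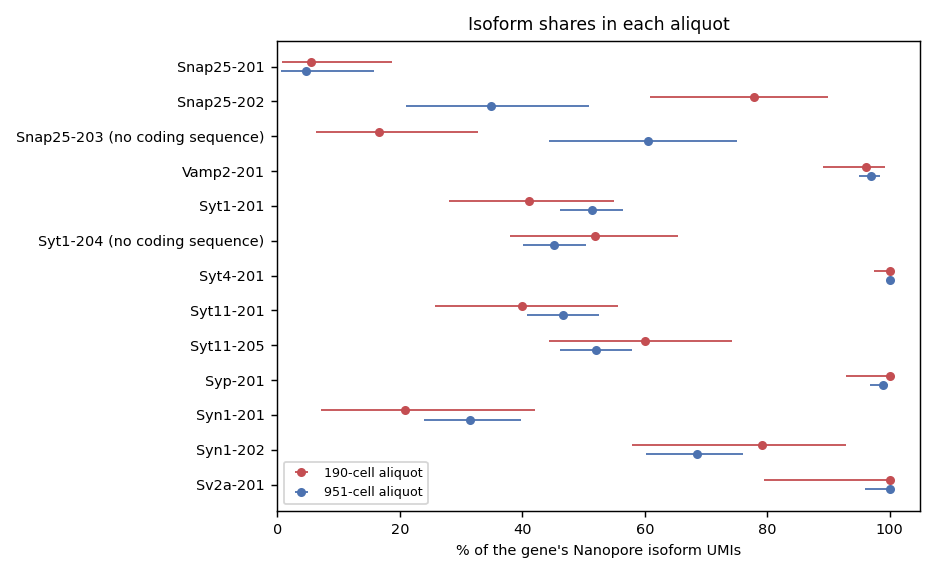
Share of each isoform in the Nanopore isoform UMIs of its gene (x axis, %) for the 13 isoforms with at least 5% over both aliquots, 1 point per aliquot with exact 95% binomial bars. Snap25-202 is at 77.8% and 34.9% in the 190-cell and 951-cell aliquot, and the bars of every isoform shown but Snap25-202 and Snap25-203 overlap between aliquots.

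Snap25 has a pair of mutually exclusive exons of 118 bases, and the form with the upstream exon prevails in the embryonic brain while that with the downstream exon is known from mature neurons. Snap25-202 carries the upstream exon (chr2:136769743-136769860) and Snap25-201 the downstream one (chr2:136770057-136770174), which differ at 31 of the 118 bases. Bases 73 to 102 of each exon, on the plus strand of GRCm38, show the stretch with most differences, the 11 differing bases in capitals.
Snap25-202: AAgaTTtaggCaaatGctgTggCctttTCA
Snap25-201: CGgaCCtaggAaaatTctgCggGctttGTG
Of 47 UMIs with either exon, 43 had the upstream one (91.5%, exact 95% interval 79.6 to 97.6), with 28 of 30 in the 190-cell and 15 of 17 in the 951-cell aliquot. In mature glutamatergic-like cells this was 27 of 28, and in mature GABAergic-like cells 6 of 9 (29.9 to 92.5%), with intervals that overlapped. Overlap does not show that the shares are alike. Without a filter on low counts diffSpliceDGE of edgeR, over all Snap25 isoforms, gave an unadjusted p of 0.042 between these classes, which did not pass after adjustment. The third isoform, Snap25-203, has 3 exons, ends at base 136762909 ahead of both exons and has no coding sequence. It held 6 of 36 UMIs of Snap25 in the smaller and 26 of 43 in the larger aliquot, so the aliquots disagreed on Snap25-203 (16.7%, 6.37 to 32.8, against 60.5%, 44.4 to 75.0).

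Syn1 was split between forms that differ in where the last exon begins, the longer coding one of which is commonly called synapsin Ia and the shorter Ib. In Syn1-202, with 2010 coding bases, exon 13 starts 38 bases further downstream than in Syn1-201, with 2118. The junctions are shown on the minus strand, from chrX:20862499-20862513 (end of exon 12, lower case) into exon 13 (capitals), which starts at chrX:20861557-20861571 and chrX:20861595-20861609.
Syn1-202: gcacccccagctcaaAGCCAGCCCCTCCCA
Syn1-201: gcacccccagctcaaCAAATCCCAGTCTCT
Syn1-202 held 117 of 167 UMIs (70.1%, 62.5 to 76.9), 19 of 24 and 98 of 143 in the aliquots. Its share was 57.1% of 42 UMIs in immature glutamatergic-like (41.0 to 72.3) and 77.6% of 76 in mature glutamatergic-like cells (66.6 to 86.4), and 81.2% of 16 in mature GABAergic-like cells (54.4 to 96.0). These intervals overlapped, which does not show that the shares are alike. Without a filter on low counts diffSpliceDGE of edgeR gave Syn1 an unadjusted p of 0.0542 in mature against immature glutamatergic-like cells (adjusted p = 0.958).

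**Figure D4:**
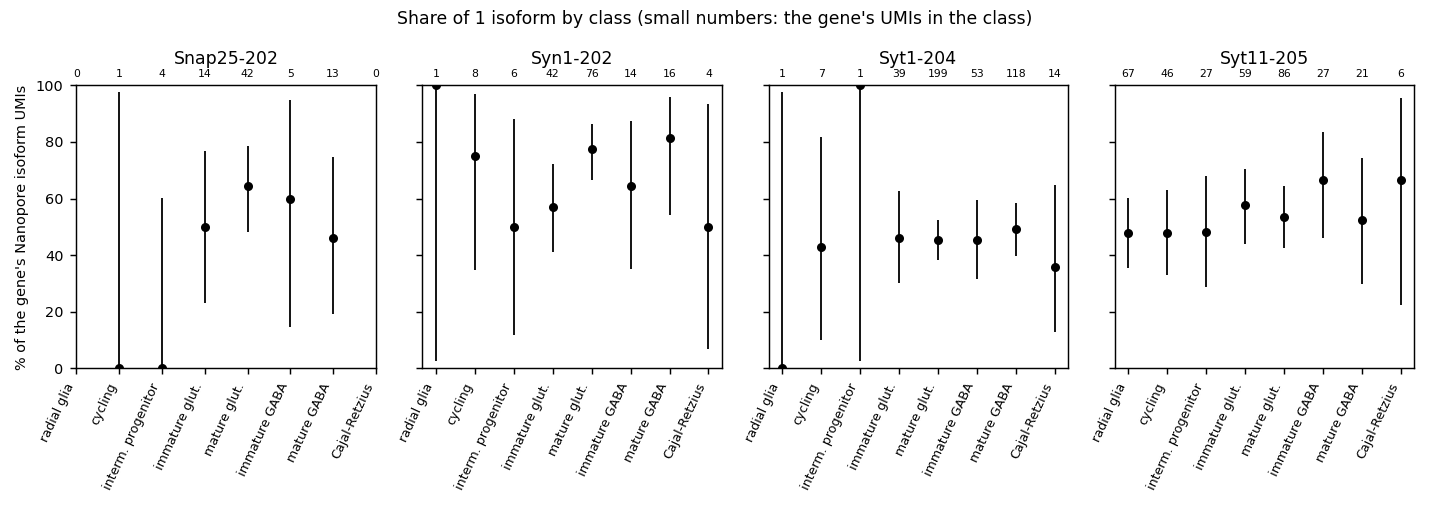
Share of Snap25-202, Syn1-202, Syt1-204 and Syt11-205 in the Nanopore isoform UMIs of their gene (y axis, %) by class, both aliquots summed, with exact 95% binomial bars and the number of UMIs of the gene above each class. Syt1-204 lies between 45.2% and 49.2% in the 4 classes of young neurons, and the bars overlap within each gene.

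Syt1 was divided between the coding Syt1-201, with 216 of 432 UMIs (50.0%, 45.2 to 54.8), and Syt1-204, with 199 (46.1%, 41.3 to 50.9). Syt1-204 has 2 exons, the second of which runs from the usual exon 2 into the next intron and ends at base 108899215, and it has no coding sequence. Its aliquot shares were 51.8% (29 of 56 UMIs) and 45.2% (170 of 376), and by class 46.2% in immature glutamatergic-like, 45.2% in mature glutamatergic-like, 45.3% in immature GABAergic-like and 49.2% in mature GABAergic-like cells. Isoforms with 2 exons are matched on 1 junction and Syt1-201 on 10. Syt1-202, which has an extra exon ahead of the start codon, held 16 UMIs (3.70%) and reached 5.93% in mature GABAergic-like cells.

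Syt11 was split between Syt11-205 with 180 of 339 UMIs (53.1%, 47.6 to 58.5) and Syt11-201 with 155 (45.7%, 40.3 to 51.2). Both join the same last exon at chr3:88747996-88748010, but Syt11-201 keeps 3 more bases of the exon before it, shown in capitals on the minus strand.
Syt11-201: ccggtctctcagGTAatccttatgtcaagg
Syt11-205: ccggtctctcagatccttatgtcaagg
The margin that the authors allowed at exon boundaries when matching UMIs is narrower than these 3 bases. A UMI whose exon ends between the ends of both isoforms can still lie within this margin of both. The margin alone therefore does not keep the isoforms apart. Syt11-205 is annotated with 3 exons and Syt11-201 with 4, and other ways of matching were not tested. Syt11-205 was at 47.8% in radial glia-like, 53.5% in mature glutamatergic-like and 52.4% in mature GABAergic-like cells. Syt11-203, with an added first exon, held 4 UMIs (1.18%), 2 of them among 27 in intermediate progenitor-like cells.

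Vamp2-202 keeps the last intron and has 489 coding bases against 348, and the reading after exon 4 (lower case, chr11:69090013-69090027, plus strand) differs as shown in capitals.
Vamp2-201: tcatcatcatcatcgTTTACTTCAGCACT
Vamp2-202: tcatcatcatcatcgGTGAGTGGGGCCAGA
It held 4 of 19 Vamp2 UMIs in radial glia-like cells (21.1%, 6.05 to 45.6) and 2 of 16 in cycling-like cells, against 1 of 228 in mature glutamatergic-like cells (0.439%, 0.0111 to 2.42). Without a filter on low counts diffSpliceDGE of edgeR gave this gene an adjusted p of 0.0566 in mature glutamatergic-like against radial glia-like cells, and with the filter it could not be tested. Syp-205, a form of Syp without coding sequence, held 2 UMIs, 1 of them among 18 in immature GABAergic-like cells, and 4 other isoforms of these genes stayed under 5% in every class with at least 10 UMIs.

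Isoform usage was tested between the same classes in 642 genes, of which Syt1 and Syt11 are the only members with counts past the filter. By diffSpliceDGE 0 of these 2 were called in any of the 6 comparisons, and 0 had an unadjusted p under 0.05. Of all genes tested, 16.5%, 4.05%, 2.02%, 12.9%, 0.935% and 1.56% were called. The first 3 shares are for mature glutamatergic-like against radial glia-like, immature glutamatergic-like against intermediate progenitor-like and mature against immature glutamatergic-like cells. The last 3 are for mature GABAergic-like against radial glia-like, mature against immature GABAergic-like and mature GABAergic-like against mature glutamatergic-like cells. The lowest p of the 12 tests was 0.351, for Syt1 in mature GABAergic-like against radial glia-like cells. Syt1 had 1 isoform UMI in radial glia-like and 1 in intermediate progenitor-like cells. Its tests against these 2 classes could therefore hardly show a change, and no lack of change is read from them. The hexamer AATAAA, the common signal for poly(A) addition, was searched on the sense strand in the last 50 bases of the member transcripts other than that of Syt4. It was found in Syt1-201, Syt1-202, Syt11-201, Syt11-203, Syp-205, Syn1-201, Syn1-202, Syp-201, Sv2a-201 and Vamp2-201 and not in Syt1-203, Syt1-204, Syt11-205, Syp-203, Vamp2-202, Vamp2-203, Vamp2-205 or the 3 forms of Snap25, and 26.6% of 141672 annotated transcripts hold it there.

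The libraries of both platforms came from the same cDNA, so Illumina gene UMIs were set against the Nanopore UMIs assigned to an isoform. Nanopore UMIs without an isoform were not counted, so the values do not show how all long reads of a gene compare. For counts per gene the paper reports a good correlation between the platforms. Of the 8 genes 2 differed, both lower in Nanopore isoform UMIs, where 50.5% of 9841 genes tested were called (30.4% lower). Syt11 had 291 and 1709 Illumina but 45 and 294 Nanopore isoform UMIs, a log2 difference of −1.62 (SE 0.20, adjusted p = 0.00173). Sv2a had 62 and 323 against 16 and 90 UMIs, a difference of −0.92 (SE 0.18, adjusted p = 0.00828), which was not called with DESeq2 (−0.89, adjusted p = 0.0827). Vamp2, Syt1, Syt4, Syp and Syn1 lay between −0.20 (SE 0.18) and 0.28 (SE 0.13), and with the aliquot as a block Syp (0.29, adjusted p = 0.00966), Syt4 (−0.14, adjusted p = 0.0265) and Snap25 (−1.41, adjusted p = 0.0472) were called as well, where 70.7% of genes were. Of 56 listed genes 46 could be tested. Of these, 8 were higher and 23 lower on Nanopore, with a median of −0.63 against −0.04 for all genes. Genes near 0 on Nanopore passed the filter on low counts through their Illumina UMIs. The counts of listed genes and their median therefore partly follow from the filter. Vamp7 (0.72), Napa (0.66) and Stx12 (0.64), of the membrane fusion machinery, were highest, and the active zone genes Erc1, Bsn and Pclo (−4.45) were lowest. Erc1 had 1 Nanopore isoform UMI against 508 Illumina UMIs, a ratio of 0.00326 after scaling to the UMIs of each platform (exact 95% counting interval 8.24e-05 to 0.0182). Bsn had 2 against 368, a ratio of 0.0090 (0.00109 to 0.0327). How many of their Nanopore UMIs had no isoform was not analysed.

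**Figure D5:**
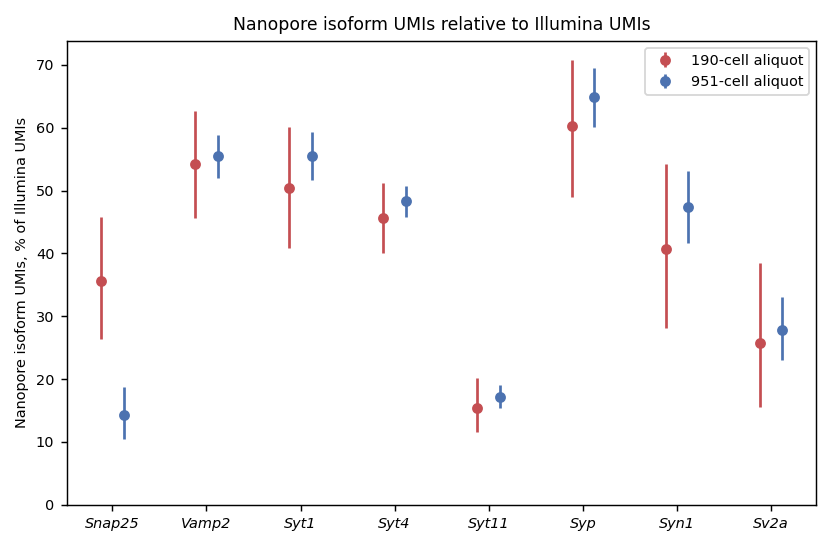
Nanopore isoform UMIs as a percentage of Illumina UMIs (y axis) for the 8 genes (x axis), 1 point per aliquot with exact 95% binomial bars. Snap25 is at 35.6% and 14.2% in the 190-cell and 951-cell aliquot with bars that do not overlap, and those of the other 7 genes do.

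Snap25 differed between the aliquots on both platforms. On Illumina it had 101 UMIs in the 190-cell and 302 in the 951-cell aliquot, 55.8 (45.5 to 67.8) against 36.4 (32.4 to 40.8) CPM, a ratio of 0.652, and the other 7 genes had ratios of 1.09 to 1.33. Among the 2042 genes with 300 to 600 Illumina UMIs in all, 65 had a ratio as low or lower. On Nanopore it had 36 and 43 UMIs, 36.2 and 8.79 CPM, which is 35.6% (26.4 to 45.8) and 14.2% (10.5 to 18.7) of its Illumina count. Per the paper, Nanopore UMIs were assigned from those that Illumina held for the same cell and gene or region. The lower Nanopore level in the 951-cell aliquot is therefore not an independent second observation. The platform difference of −1.30 (SE 0.60, adjusted p = 0.126) was called without the 190-cell library of Illumina (−0.99, adjusted p = 0.00392) or of Nanopore (−2.13, adjusted p = 1.23e-09). The cause of the difference between the aliquots was not tested.

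Over the 14 sums of 7 classes and 2 aliquots, the genes most like each member in log2 level (Pearson's r, a description over sums that share libraries) were Kif5a, Mllt11 and Rab3a for Snap25 (0.947 to 0.934), Cnrip1, Hcfc1r1 and Serp2 for Vamp2 (0.953 to 0.931), and Dpf1, Atp6v1b2 and Tmem179 for Syt1 (0.943 to 0.93). For Syt4 they were Tmsb4x, Sh3kbp1 and Grp (0.948 to 0.90), for Syp Mllt11, Sobp and Rab3a (0.969 to 0.951), for Syn1 Tmem108, Aplp1 and Sh3bp5 (0.958 to 0.936), and for Sv2a Exoc6b, Nbea and Stk25 (0.963 to 0.947). Syt11 was most like Klf15, Etv4 and Pacsin3 (0.901 to 0.876). Among the members, Syt11 had a negative r with each of the other 7 (−0.78 to −0.45), and the closest pair was Snap25 and Syn1 (0.892).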

How the data were processed

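Both matrices of each aliquot hold UMI counts, deposited without normalization. Per the paper's methods, the authors counted Illumina UMIs for every gene in every barcode on mm10 with Cell Ranger 2.0. They made the Nanopore counts per Gencode vM18 isoform by mapping with minimap2, taking barcodes and UMIs that the Illumina reads of the same gene also held, and keeping UMIs whose exon structure matched 1 isoform within a small margin at exon boundaries. Nanopore UMIs without an isoform were not analysed here.

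Cells with under 1400 detected genes (5% of the rows of the Illumina matrix) were left out. Cells were scaled to 10000 UMIs and clustered with Seurat 5.3.0 on 2000 variable genes at a resolution of 0.8, after integrating the aliquots (11 dimensions). The 8 members and the 56 listed synaptic genes were kept out of the variable genes, but the same cells served for the clustering and for the comparisons. A cluster took the class with at least 3 markers that were seen in 10% of its cells and lay 0.5 log2 units above the other cells (on CPM plus 10), leading the next class by 0.2. These limits were set after the clusters were seen. The 3 cells with at least 5 microglia markers were left out. Doublets called with Scrublet in scanpy 1.11.5, 3 in the 190-cell and 4 in the 951-cell aliquot, were kept and left out in an alternative.

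Counts were summed per class and aliquot. Gene sums were tested with the quasi-likelihood test of edgeR 4.0.16 in R 4.3.3 (TMM, filterByExpr, 1 fit over 14 sums of 7 classes), isoform sums with its diffSpliceDGE function, and platforms on the 12545 joined gene symbols over 4 libraries, with Benjamini-Hochberg adjustment over all genes tested and 0.05 as the threshold. DESeq2 1.42.0 served as an alternative. Fold changes carry a standard error (SE) derived from the test, as the absolute log2 fold change divided by the square root of the F statistic. Intervals are exact 95% binomial or Poisson intervals and cover counting error only. Shares of cells were compared after drawing 2000 UMIs from each cell (0 cells had fewer). The aliquots are 2 parts of 1 emulsion with cells of 1 mouse, so p-values cover technical spread only. Over genes, libraries of 1 aliquot deviated together from the platform means (r = 0.596), and so did the classes, with a median r of 0.223 (0.141 to 0.341 over 21 pairs), so the aliquots pair the samples and fits with the aliquot as a block are given where they change a call.

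The fits were also tested on simulated data with genes changed by a known fold and isoforms swapped. In the simulation every other gene or isoform had the same share in all sums, with no shift shared within an aliquot. Real classes differ in many genes and pair by aliquot, and members are near 0 in some classes. The rates below may therefore not carry over to the members. Of 200 genes changed 2-fold, 15.0% were recovered in mature glutamatergic-like against radial glia-like cells, with 6 false among 36 calls. In mature against immature glutamatergic-like cells it was 24.5%, with 19 false among 68. In mature GABAergic-like against mature glutamatergic-like cells it was 5.5%, with 4 false among 15, and between platforms 45.5%, with 13 among 104. Isoform swaps in 100 genes were recovered for 70%, with 8 false calls. The share of false calls was above the threshold of 0.05 in each comparison simulated. Adjusted p-values may therefore be too small, and genes that did not pass may still have changed. Coordinates, exon structures and exon sequences come from Gencode vM21 (GRCm38, the same assembly as mm10). All member isoforms matched by identifier, Syt4-201 with another version number. The members, the lists and the tests were chosen with earlier results of these data known. Named were the 8 members, their isoforms with at least 5% of the gene's UMIs overall or in a class, the 3 largest rises and falls of listed genes per comparison, and the 3 genes most like each member. Figures were drawn with matplotlib 3.10.9.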

Additional observations from a re-analysis of the deposited data

Results flagged for a closer look

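Syt4 and Syt1 were noted because their change from radial glia-like cells differed between the 2 mature neuron classes, by the test of mature GABAergic-like against mature glutamatergic-like cells. Both changes share the radial glia-like level, which cancels. The values below are thus those of that comparison given above and not a second result. For Syt4 the change was smaller in GABAergic-like cells by a log2 value of −2.84 (SE 0.28, adjusted p = 1.97e-10, edgeR), lower in both aliquots. For Syt1 it was larger by 1.12 (SE 0.27, adjusted p = 0.00503), higher in both aliquots, and not called without the larger aliquot of the GABAergic-like class (adjusted p = 0.44) or with DESeq2 (adjusted p = 0.226).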

How the results depend on the processing

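Every fit rests on 2 aliquots of 1 suspension, most members hold under 100 UMIs in a class of the smaller aliquot, and counts near 0 in radial glia-like cells set the size of the largest fold changes. No direction of a called member turned under any alternative. With DESeq2, the members called were 1 in place of 2 between platforms, 1 in place of 3 for immature glutamatergic-like against intermediate progenitor-like cells, 0 in place of 2 for mature against immature glutamatergic-like cells and 1 in place of 2 for mature GABAergic-like against mature glutamatergic-like cells. With the aliquot as a replicate block they were 5 in place of 2 between platforms, 3 in place of 2 for mature against immature glutamatergic-like cells and 2 in place of 1 for mature against immature GABAergic-like cells, and the block turned no call of a member into a miss. Leaving out 1 sum at a time gave 1 to 3 members for immature glutamatergic-like against intermediate progenitor-like, 1 to 1 for mature against immature glutamatergic-like, 5 to 8 for mature GABAergic-like against radial glia-like, 0 to 1 for mature against immature GABAergic-like and 1 to 2 for mature GABAergic-like against mature glutamatergic-like cells. Of the changes of single members between classes, 24 were called and 24 were not. Recomputed under the alternatives, the called ones gave 309 values, of which 288 were called and 21 were not, and the others gave 309, of which 5 were called.

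Counts over all genes moved more. DESeq2 called 3064 in place of 4969 genes between platforms. The comparisons of classes are numbered here in the order listed with the tests of isoform usage. For gene counts DESeq2 called, in that order, 1655 for 2901, 253 for 668, 76 for 310, 1548 for 2686, 92 for 226 and 319 for 761. It gave an adjusted p to 7278, 7768 and 5156 genes in the second, the third and the fifth comparison and to 8421 in the others. The block called 1176 for 668, 954 for 310, 486 for 226 and 1259 for 761 in the second, the third, the fifth and the sixth comparison. Leaving out 1 sum gave 1502 to 2817, 238 to 516, 100 to 209, 1201 to 2611, 95 to 206 and 366 to 621 genes. For isoform usage, with 106, 26, 13, 83, 6 and 10 genes called, the block gave 42, 42, 14 and 20 in the second, the third, the fifth and the sixth comparison, no filter gave 185, 7, 1 and 0 in the first, the second, the third and the fifth, and leaving out 1 sum gave 44 to 124, 5 to 21, 1 to 7, 32 to 96, 0 to 6 and 0 to 11. The cause was not tested beyond the smaller number of sums.

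Within single aliquots the main isoform's share ranged from 34.9% to 77.8% for Snap25-202, 41.1% to 51.3% for Syt1-201, 52.0% to 60.0% for Syt11-205, 98.9% to 100% for Syp-201 and 68.5% to 79.2% for Syn1-202. The order of mature glutamatergic-like and radial glia-like shares of cells with a UMI was the same with and without thinning. Orders of other classes could turn, with thinned intervals that overlapped. Sv2a went from 38.1% against 28.4% in mature against immature glutamatergic-like cells to 6.12% against 10.2% after thinning. Vamp2 went from 42.0% against 29.7% in radial glia-like against cycling-like cells to 4.35% against 6.78%.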
